A study of Mus musculus with 6 samples.

Results

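The GIMAP GTPase family was examined in CD4 T cells with and without AMPK. The members were taken by symbol as the 8 genes Gimap1, Gimap3, Gimap4, Gimap5, Gimap6, Gimap7, Gimap8 and Gimap9, and all 8 were among the 23282 genes listed in each library and among the 11279 genes that were expressed highly enough to be tested. The rule takes the genes by name and not by a threshold on the values, but the family was chosen with earlier results of these data known. The study asked how the transcripts of AMPK-deficient cells differ from those of WT cells, in 3 samples a group, described as biologically independent. Both groups were C57BL/6 mice carrying a floxed Prkaa1 gene, which encodes the α1 catalytic subunit of AMPK. The AMPK KO mice also carried CD4Cre and the WT mice did not. CD4Cre is active from the thymic stage at which CD4 and CD8 are both present, so the deletion is not restricted to cells that end up as CD4 T cells. Unless another design was given, the study used female mice of 6 to 8 weeks. Per the methods, CD4 T cells were purified with magnetic beads or a cell sorter. Spleen and lymph nodes were the source of the cells, which had a rest of 1 h in RPMI-1640 and were stimulated through CD3 and CD28 with antibodies at 2 µg/ml. The labels put the stimulation at 24 h, whereas the study's methods give 6 h, so the time of stimulation is uncertain. A single time point was sampled, and no unstimulated library was analysed here.

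GIMAP proteins (GTPases of the immunity-associated protein family) are small GTP-binding proteins related to the septins and dynamins. They are abundant in lymphocytes and are encoded side by side in mammalian genomes. Several sit on the membranes of the endoplasmic reticulum, lysosome or Golgi, and they are known for their part in the survival and quiescence of peripheral lymphocytes. Rodents that lack Gimap5 lose most of their peripheral T cells. AMPK is the kinase complex that senses a fall in cellular energy, and it restrains growth and promotes catabolism in T cells.

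The 8 genes lay within 123.6 kb on mouse chromosome 6 (mm10, GENCODE annotation), at chr6:48647234-48770851. In chromosomal order they were Gimap8, Gimap9, Gimap4, Gimap6, Gimap7, Gimap1, Gimap5 and Gimap3. Of these, 6 were on the plus strand, while Gimap6 and Gimap3 were on the minus strand. The annotation also held Gm28053, a gene model that runs across Gimap7, Gimap1 and Gimap5 on their strand, and Gimap1os, which lies opposite Gimap1. RefSeq placed the lncRNA Gm46958 across the start of Gimap9. None of these overlapping genes was listed in the libraries, and whether counting used the strand is not given in the sources used here, so reads from them cannot be told apart from reads of the members they overlap. QuantSeq reads come from the 3′ ends of transcripts. In the last 500 bases of the annotated protein-coding transcripts, no stretch of 50 bases was shared between 2 members. Only Gimap1 (5.3% of such stretches) and Gimap3 (3.53%) shared any with other annotated genes, and the other 6 shared none.

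The 250 bases upstream of the RefSeq start site (GRCm38.p6, plus strand, 5′ to 3′) are shown for the members with the lowest fold changes, Gimap9 and Gimap4, and for Gimap5, whose mean moved the other way. They covered chr6:48675885-48676134 for Gimap9, chr6:48684328-48684577 for Gimap4 and chr6:48745947-48746196 for Gimap5. Capitals mark the letters TGTGGT, a core motif of the RUNX factors of T cells, read here on the opposite strand as ACCACA.
Gimap9: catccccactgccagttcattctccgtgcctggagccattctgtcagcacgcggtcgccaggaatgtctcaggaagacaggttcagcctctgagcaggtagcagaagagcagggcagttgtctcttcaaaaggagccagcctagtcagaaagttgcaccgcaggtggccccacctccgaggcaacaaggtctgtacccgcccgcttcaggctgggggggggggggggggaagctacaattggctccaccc
Gimap4: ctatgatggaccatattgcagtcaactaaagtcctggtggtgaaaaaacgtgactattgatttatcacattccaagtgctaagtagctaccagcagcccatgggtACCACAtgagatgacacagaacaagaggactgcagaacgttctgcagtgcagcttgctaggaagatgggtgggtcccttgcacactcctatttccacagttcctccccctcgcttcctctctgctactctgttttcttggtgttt
Gimap5: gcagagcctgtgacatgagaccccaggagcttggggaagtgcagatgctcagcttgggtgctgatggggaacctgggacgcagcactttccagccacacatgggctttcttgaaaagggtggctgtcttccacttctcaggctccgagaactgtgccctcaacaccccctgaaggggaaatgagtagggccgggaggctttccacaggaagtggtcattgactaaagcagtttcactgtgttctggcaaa
The match in Gimap4 began 145 bases before the start site, and Gimap9 and Gimap5 held none. All 8 members matched a RefSeq entry, with a second start site for Gimap8, and upstream windows of Gimap7 and Gimap1 held the same letters, so 3 of 8 genes had them. Among 32851 RefSeq windows of the same length, searched on both strands, 14.0% held these letters. The letters TGTTTAC, bound by FOXO factors, occurred upstream of Gimap3 alone, against 3.2% of all windows. Neither CTTTGA of the TCF and LEF factors, found in 13.8% of all windows, nor CCGGAAG of the ETS factors, found in 6.9%, occurred upstream of any member. No matches of these 4 motifs overlapped in the members' windows, and a match or its absence is only a description of the window.

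By reads worked back from the deposited log2 values, the libraries held an estimated 9575096 to 11185360 reads on genes. Rn45s, the ribosomal RNA precursor, took 22.4% ± 2.21 of the reads in WT and 9.89% ± 1.24 in AMPK KO (SD, n = 3), so that the libraries of the 2 groups also differed in a way that is not a messenger RNA. Values are given as deposited, on a log2 scale of normalized value plus 1, and fold changes are AMPK KO minus WT on that scale. Prkaa1 itself measured 4.64, 5.24 and 4.86 in WT and 4.08, 4.72 and 4.67 in AMPK KO. Its difference of −0.43 did not pass the test (limma, adjusted p = 0.357), and the groups overlapped. With 3′ reads, transcripts that keep their 3′ end after deletion are still counted, so this gene does not check the labels. Cd4, the marker that names the cells, was present at 6.53 to 6.83 in WT and 6.14 to 6.55 in AMPK KO. Cd8a, a marker of the other main T cell lineage, was present as well, at 6.48 to 6.86 in WT and 6.95 to 7.08 in AMPK KO, as was Cd8b1, at 7.17 to 7.61 and 7.58 to 7.98. None of these 3 differences passed the test (limma, adjusted p = 0.224 for Cd4, 0.217 for Cd8a and 0.197 for Cd8b1). The libraries labelled CD4 T cells thus held CD8 transcripts in both groups, and Cd8b1 measured above Cd4 in every sample. The part of CD8 T cells in the GIMAP values was not tested.

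Gimap9 was the member with the largest difference, and it fell to 36.5% of its WT level. Gimap4 fell to 61.9%. None of the other 6 passed the test, although 7 of the 8 members had a lower mean in AMPK KO, as did 48.8% of all tested genes, and only Gimap5 had a higher one. Thus 2 of 8 members were called lower in AMPK KO, where 3.10% of all tested genes were, and 0 of 8 were called higher, against 2.54% of all tested genes, or 5.65% in either direction (limma, adjusted p threshold 0.05). No member was higher at an unadjusted p under 0.05 or with limma voom, and 4 were lower at an unadjusted p under 0.05, a level that 21.3% of all tested genes reached in either direction. The median fold change of the 8 members was −0.30, and that of all tested genes was 0.02. Because these are bulk samples, fewer cells of a kind and less RNA per cell cannot be told apart.

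Gimap9, a member whose function is less well known than that of its neighbours, measured 9.24, 9.10 and 9.08 in WT and 7.66, 7.87 and 7.53 in AMPK KO. All 3 AMPK KO samples were more than 1 log2 unit below the lowest WT sample, and the spread within either group was small (9.14 ± 0.08 in WT, 7.68 ± 0.17 in AMPK KO, SD, n = 3). These values rested on 2182 to 5548 reads a library. The difference was −1.46 (SE 0.14, 95% interval −1.75 to −1.16, limma, adjusted p = 3.8e-05), a 2.74-fold lower level. By exact permutation (two-sided) p was 0.1, the smallest that 3 samples against 3 allow. Gimap9 ranked 10 of all tested genes by p-value, and 0.426% of the tested genes had a lower fold change.

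Gimap4, a GTPase that promotes the death of T cells after apoptotic signals, measured 10.84, 10.73 and 11.03 in WT and 10.26, 10.50 and 9.76 in AMPK KO. The groups did not overlap, but AMPK KO 2 lay near the lowest WT sample and AMPK KO 3 lay well below the other two. The means were 10.87 ± 0.15 and 10.18 ± 0.38 (SD, n = 3), at 10328 to 18501 reads a library. Gimap4 fell by 0.69 (SE 0.18, 95% interval −1.08 to −0.30, limma, adjusted p = 0.038; exact permutation p = 0.1). The call did not hold whichever sample was left out. It was lost without WT 1 (adjusted p = 0.162), WT 3 (0.199), AMPK KO 1 (0.114) or AMPK KO 3 (0.144), and it was kept without WT 2 (0.0431) or AMPK KO 2 (0.000755). Where it was lost, the difference was −0.71, −0.61, −0.73 and −0.49, in that order. Calls over all tested genes were 127, 140, 172 and 464 in those fits, in place of 637. With no filter on low values the Gimap4 call was lost as well (adjusted p = 0.418), as with a term for replicate number (adjusted p = 0.156). The direction was the same in each of these alternatives.

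Gimap6, which binds the autophagy protein GABARAPL2, measured 10.03, 9.71 and 10.02 in WT and 9.16, 9.77 and 9.08 in AMPK KO. AMPK KO 2 was above WT 2, whereas the other two AMPK KO samples were below every WT sample. The difference of −0.58 (SE 0.18, 95% interval −0.97 to −0.20) did not pass the test (limma, adjusted p = 0.0711; exact permutation p = 0.2). It passed without AMPK KO 2, at −0.80 (adjusted p = 0.000479), and after scaling to the reads outside Rn45s, at −0.65 (adjusted p = 0.0336).

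**Figure D1:**
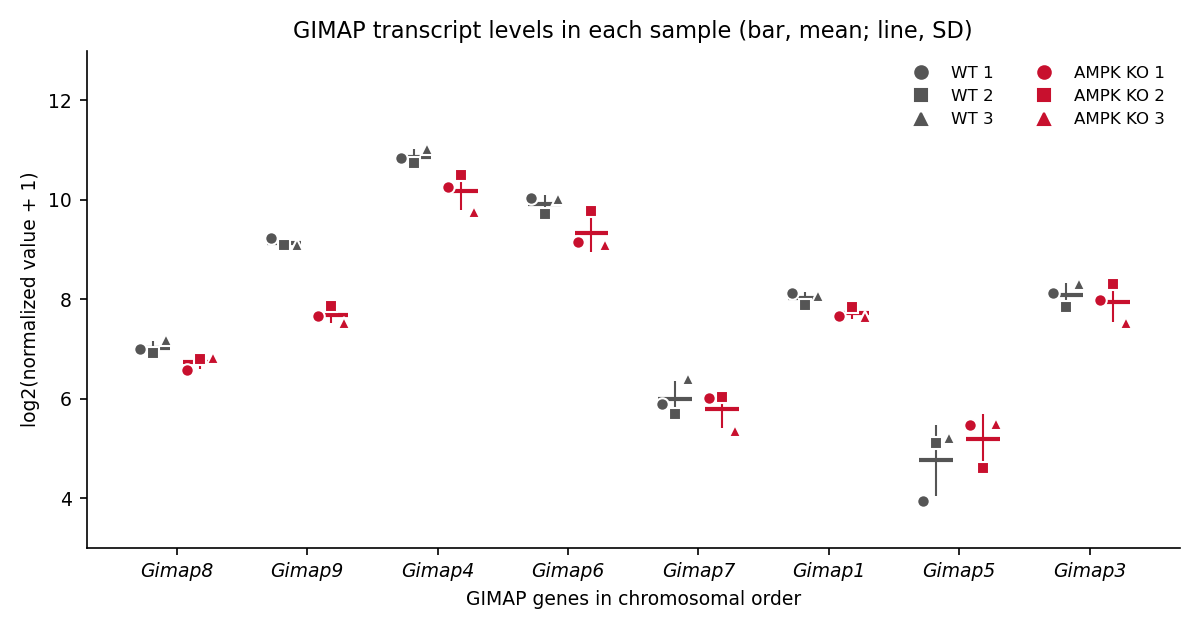
Log2(normalized value + 1) of the 8 GIMAP genes, in chromosomal order, for each of 3 WT and 3 AMPK KO samples, where symbols are samples, horizontal bars are means and vertical lines are SD. The 3 AMPK KO values of Gimap9 (7.53 to 7.87) sit apart from the WT values (9.08 to 9.24), and the values of Gimap3, Gimap5, Gimap6 and Gimap7 overlap between the groups.

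Gimap1 is needed for the maintenance of mature T and B cells. It measured 8.12, 7.89 and 8.06 in WT and 7.66, 7.85 and 7.64 in AMPK KO, with the highest AMPK KO sample just under the lowest WT sample. Its difference was −0.30 (SE 0.14, 95% interval −0.60 to −0.01, limma, adjusted p = 0.223). Gimap8, an unusually long member with repeated GTPase domains, measured 6.99, 6.91 and 7.17 in WT and 6.58, 6.81 and 6.83 in AMPK KO. These groups also did not overlap, and the difference was −0.29 (SE 0.15, 95% interval −0.61 to 0.04, limma, adjusted p = 0.294). In all, 4 of 8 members (Gimap1, Gimap4, Gimap8 and Gimap9) had every AMPK KO sample below every WT sample, as did 14.0% of all tested genes (25.6% did not overlap in either direction).

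Gimap3 and Gimap5 are close relatives that have been linked to BCL2-family proteins and to T cell survival, and Gimap7 is a GTPase that can form dimers with other members. Gimap3 measured 8.14, 7.85 and 8.30 in WT and 7.98, 8.32 and 7.53 in AMPK KO, so that the highest and the lowest value were both in AMPK KO. Its difference of −0.15 had a 95% interval of −0.55 to 0.25 (limma, adjusted p = 0.693). Gimap7 measured 5.90, 5.70 and 6.41 in WT and 6.01, 6.03 and 5.34 in AMPK KO, and its difference of −0.21 had an interval of −0.70 to 0.28 (limma, adjusted p = 0.645). Without AMPK KO 3 these 2 differences were 0.05 and 0.02, and that of Gimap7 was −0.0052 without WT 3.

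Gimap5 measured 3.94, 5.12 and 5.22 in WT and 5.47, 4.60 and 5.50 in AMPK KO. One sample stood low in each group, WT 1 and AMPK KO 2. Its mean was higher in AMPK KO, by 0.43 (SE 0.33, 95% interval −0.27 to 1.13, limma, adjusted p = 0.48), with wide overlap. Single libraries decided its size, since the difference was 0.024 without WT 1 and 0.73 without AMPK KO 2. Gimap5 had the fewest reads of the family, 132 to 526 a library. At 132 reads the counting error is 0.13 on the log2 scale, below the SD among WT samples (0.71).

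**Figure D2:**
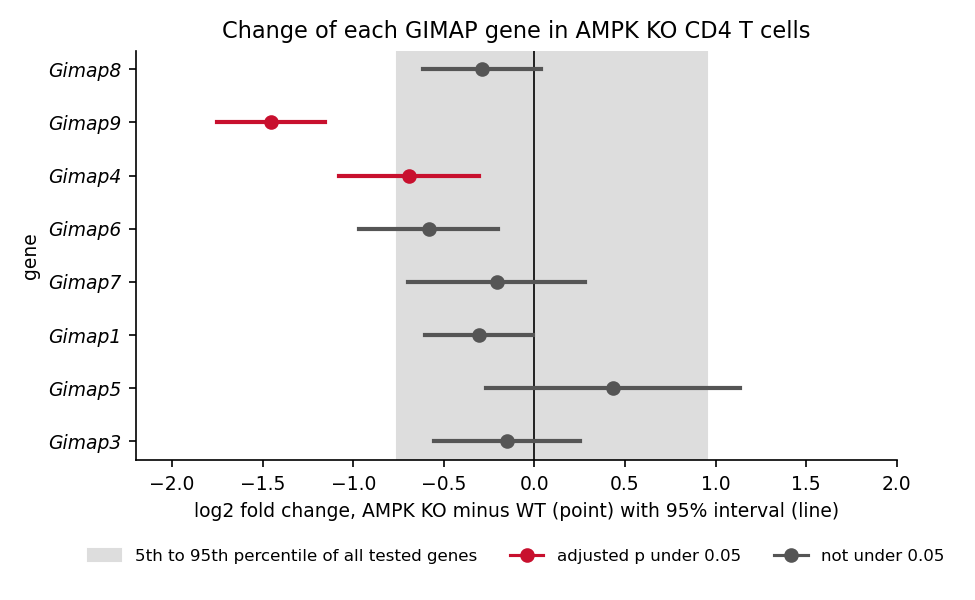
Log2 fold change of each GIMAP gene (AMPK KO minus WT, points) with its 95% interval (lines), where red marks an adjusted p under 0.05 and the grey band spans the 5th to 95th percentile of all 11279 tested genes (−0.76 to 0.96). Only Gimap9 (−1.46) lies outside the band, Gimap4 (−0.69) passed the test inside it, and the intervals of Gimap3, Gimap5, Gimap7 and Gimap8 include 0.

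The members were then summed in each sample on the linear scale, as a level of the family as a whole. The sum was 4229, 3754 and 4514 in WT and 2648, 3302 and 2172 in AMPK KO. Every AMPK KO sample was below every WT sample, and the log2 sums averaged 12.02 ± 0.13 and 11.38 ± 0.30 (SD, n = 3). This is a difference of −0.64, or 64.2% of the WT level. Without Gimap9 the difference was −0.54, or 68.6% of the WT level, and the groups still did not overlap.

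The make-up of the sum differed as well. Gimap9 made up 14.2%, 14.6% and 12.0% of it in WT and 7.61%, 7.03% and 8.45% in AMPK KO. Its share averaged 13.6% ± 1.41 and 7.69% ± 0.712 (SD, n = 3), with no overlap. Gimap4 kept a similar share (44.9% ± 1.60 and 43.4% ± 3.14), and so did Gimap6 (23.3% ± 1.23 and 24.3% ± 2.54), and both overlapped between groups. The shares of Gimap3 (6.56% and 9.20%), Gimap1 (6.24% and 7.90%) and Gimap8 (3.11% and 4.04%) were higher in every AMPK KO sample than in any WT sample. A share can rise when another member falls, and 3′ reads were not scaled by length, so shares were compared within a gene between the groups.

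**Figure D3:**
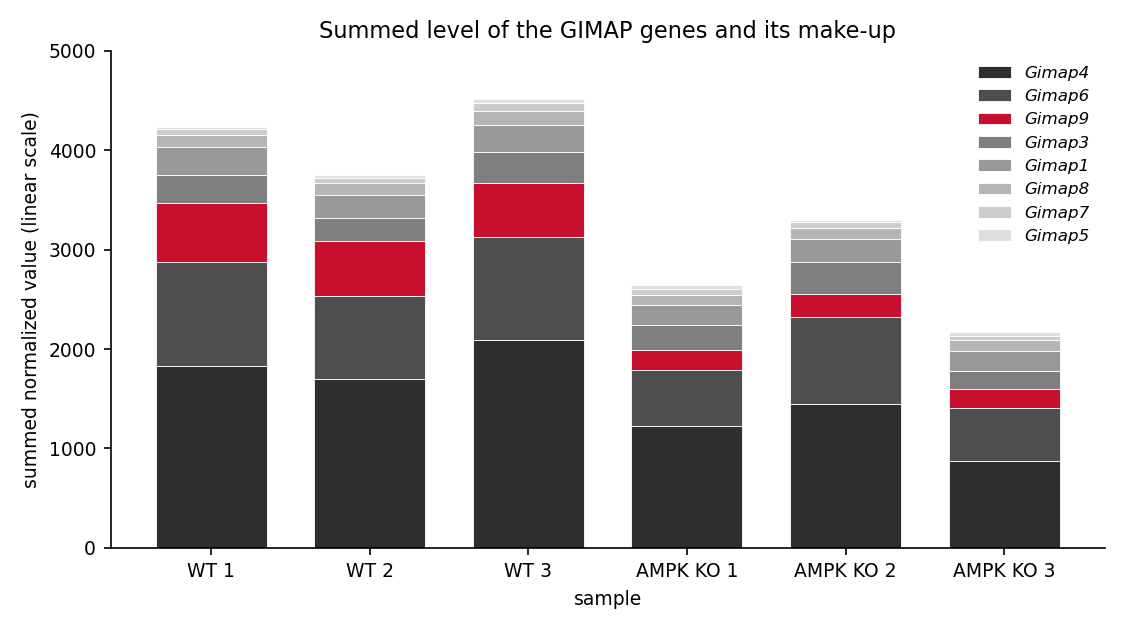
Summed normalized value of the 8 GIMAP genes (linear scale) in each of the 6 samples, where each bar is 1 sample and its segments are the members, with Gimap9 in red. The sum was 3754 to 4514 in WT and 2172 to 3302 in AMPK KO, and the red segment took 12.0% to 14.6% of the bar in WT and 7.03% to 8.45% in AMPK KO.

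Whether Gimap9 moved apart from its relatives was tested within samples, as its value minus the mean of the other 7 members. It stood 1.53, 1.40 and 1.05 above that mean in WT, and 0.07, 0.17 and 0.14 above it in AMPK KO. The groups did not overlap, and the change was −1.20 (exact permutation p = 0.1, adjusted p = 0.4 over the 8 members compared in this way). This design cannot give a lower p. Gimap4 minus the others also did not overlap, with a change of −0.33 (exact permutation p = 0.1, adjusted p = 0.4), and the remaining 6 overlapped. Against its immediate neighbours on the chromosome, Gimap9 changed by −1.17 relative to Gimap8 and by −0.76 relative to Gimap4 on average, without overlap. These values describe the fall of Gimap9, which was chosen for its size, from another side.

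Along the chromosome, the 3 lowest fold changes were those of adjacent genes, Gimap9, Gimap4 and Gimap6, and the 2 genes on either side of them had fold changes of −0.29 (Gimap8) and −0.21 (Gimap7). Of the 10 RefSeq genes on each side of the cluster, 11 were listed and 5 were tested. None of those 5 was called lower by limma at the adjusted threshold, and the lowest fold change was that of Lrrc61 (−0.17, SE 0.32, adjusted p = 0.808). Tmem176b, a membrane protein gene of myeloid and some T cells, was called higher. It measured 4.80, 5.02 and 4.78 in WT and 5.59, 6.59 and 5.47 in AMPK KO, a difference of 1.02 (SE 0.26, limma, adjusted p = 0.0348). This call was lost without WT 1, WT 3 or AMPK KO 1 (adjusted p up to 0.159). The difference of Tmem176b ranged from 0.66 without AMPK KO 2 to 1.22 without AMPK KO 3. The adjoining Tmem176a differed by 0.81 but did not pass (adjusted p = 0.181), nor did Lrrc61 (−0.17), Repin1 (0.42) or Zfp775 (0.01).

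**Figure D4:**
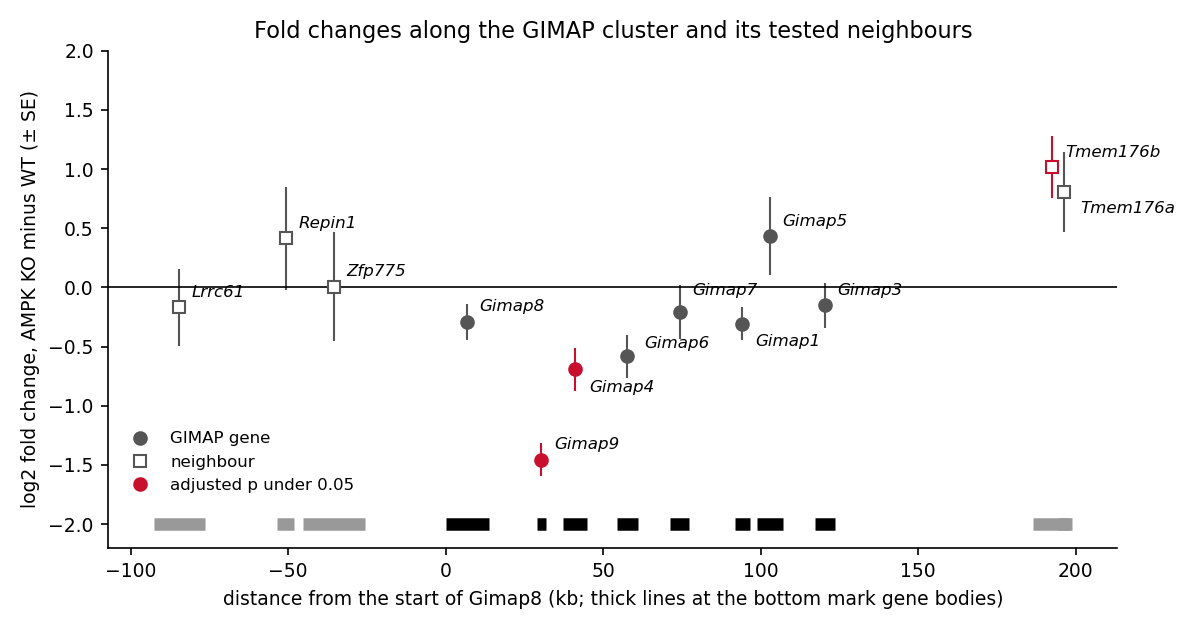
Log2 fold change (AMPK KO minus WT, ± SE) of the GIMAP genes (circles) and of the 5 tested neighbours (squares) against the distance in kb from the start of Gimap8, with gene bodies as thick lines at the bottom and red for an adjusted p under 0.05. Gimap9 (−1.46), Gimap4 (−0.69) and Gimap6 (−0.58) are adjacent and lowest, and Tmem176b (1.02) outside the cluster is highest.

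Samples of 1 group also differed in how many members were high or low. In AMPK KO 2, 7 of 8 members were above their group mean, all but Gimap5, and in AMPK KO 3, 6 of 8 were below it, all but Gimap5 and Gimap8. In WT 3, 7 were above the mean, all but Gimap9, and in WT 2, 7 were below it, all but Gimap5. WT 1 and AMPK KO 1 had 4 above and 4 below. Of all tested genes, 49.1% to 51.4% were above their group mean in any sample. Whether members vary together was not tested.

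The libraries could also be divided from genes at large. Over genes with a mean log2 value of at least 4, the first component of the deviations from the group means held 59.8% of their variance and set WT 1, WT 3 and AMPK KO 2 against WT 2, AMPK KO 1 and AMPK KO 3. Each side thus holds 1 sample of one genotype, and the differences within a side have no test. Gimap9 differed by −1.29 and −1.51 on the 2 sides, Gimap4 by −0.43 and −0.72 and Gimap6 by −0.25 and −0.59. Gimap1 (−0.24 on both), Gimap8 (−0.28 and −0.21) and Gimap7 (−0.13 and −0.02) had lower AMPK KO means on both sides. Gimap5 had higher ones (0.03 and 0.37), and Gimap3 differed by 0.10 and −0.09.

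As a description, the genes whose profile over the 6 samples was closest to the mean profile of the 8 members were Map3k2, Strbp, Sash3, Vps13a and Sec22c. Their centred values differed from that profile by 0.0263, 0.0377, 0.0409, 0.0464 and 0.0498 on average. Their fold changes lay between −0.48 (Sec22c) and −0.32 (Vps13a), and none of the 5 was called.

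Gene lists tied to the known roles of GIMAP proteins were read beside the family. Gimap6 acts with the ATG8 proteins, which mark autophagosomes. Of 5 tested ATG8 genes none was called by limma in either direction, none reached an unadjusted p under 0.05, and none was called with limma voom. Their median difference was 0.24 (0.15 without WT 1 to 0.32 without AMPK KO 1), and the partner gene Gabarapl2 differed by 0.33. Of 13 tested BCL2-family genes, 3 were called higher and 1 lower, with a median of 0.21 (0.08 without WT 2 or AMPK KO 2, and up to 0.33 without AMPK KO 1), where 2.54% of all tested genes were called higher and 3.10% lower. The same shares apply to the counts of the lists that follow. The anti-apoptotic Bcl2 fell by 0.67 (limma, adjusted p = 0.0206). Pmaip1, which encodes the pro-death protein NOXA, rose by 0.85 (adjusted p = 0.0273), and the pro-survival genes Bcl2a1b and Bcl2a1d rose by 0.74 and 0.72 (adjusted p = 0.0412 and 0.0371). Bcl2a1b and Bcl2a1d are near-identical copies, so the split of reads between them is uncertain. Without WT 1 or WT 3 none of these 4 calls remained, and without AMPK KO 1 only that of Bcl2 did. Those of Bcl2a1b and Bcl2a1d were also lost without AMPK KO 3.

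Of 12 tested naive and resting T cell genes, 6 were called lower and 0 higher (0 higher also at an unadjusted p under 0.05 and with limma voom), with a median of −0.57, against 3.10% of all tested genes called lower. The mean was lower in AMPK KO for 10 of the 12 and higher for 2, where 48.8% of all tested genes had a lower mean. Ccr9, a gut-homing chemokine receptor, fell by 1.97 (limma, adjusted p = 0.00127). Tcf7 and Lef1, transcription factors of naive T cells, fell by 1.66 (adjusted p = 0.000719) and 1.03 (adjusted p = 0.0016). These 3 kept their calls whichever sample was left out. Bach2, a repressor of effector genes, fell by 0.80 (adjusted p = 0.046), with a range of −0.95 to −0.52 when single samples were left out. Its call was lost without WT 1, WT 3 or AMPK KO 1. The count was 3 of 12 without each of those samples.

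Early activation genes moved in both directions. Of 11 tested, 2 were called higher and 2 lower, with a median of −0.23. This median was −0.48 without WT 3, −0.41 without AMPK KO 2 and −0.18 without WT 2. The cytokine gene Ifng rose by 1.70 (limma, adjusted p = 0.0231) and the costimulatory receptor gene Tnfrsf9 rose by 0.72 (adjusted p = 0.0245), both lost without WT 1, WT 3 or AMPK KO 1. The transcription factor genes Egr3 and Egr1 fell by 1.34 (adjusted p = 0.000719) and 0.76 (adjusted p = 0.00592), and the call of Egr1 was lost without WT 1 (adjusted p = 0.066).

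Markers of cell types were counted because GIMAP genes are expressed by most lymphocytes and by endothelium, and purification can leave some other cells. The T cell markers were tested apart from Trat1, which had no reads in WT. Their summed log2 level was 11.80 to 11.88 in WT and 11.51 to 11.76 in AMPK KO. Of 14 tested, 3 were called lower and 1 higher, with a median of −0.30 (−0.31 without AMPK KO 2 to −0.19 without AMPK KO 1). Cd3g fell by 0.93 (limma, adjusted p = 0.00579), Cd3e by 0.66 (adjusted p = 0.0239) and Cd28 by 0.56 (adjusted p = 0.047), whereas Thy1 rose by 0.50 (adjusted p = 0.0476). Without WT 1 none of these 4 calls remained, and without WT 3 or AMPK KO 1 only that of Cd3g did. The calls of Cd3e and Cd28 were also lost without AMPK KO 3 and that of Thy1 without WT 2, and the list had 5 lower calls without AMPK KO 2. When values were set relative to the mean of the T cell markers, Gimap9 still differed by −1.26 and was called, and Gimap4 differed by −0.49 and was not (adjusted p = 0.0996), while the median of all tested genes moved to 0.22.

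Myeloid markers were higher in AMPK KO. All 13 had a higher mean, 7 of 13 were called, and their summed log2 level was 9.32 to 9.50 in WT and 9.90 to 10.73 in AMPK KO. The largest were Cd14 (1.87, limma, adjusted p = 0.0031), C1qa (1.85, adjusted p = 0.00308), C1qb (1.50, adjusted p = 0.00465) and Fcer1g (1.12, adjusted p = 0.0198). The count of called myeloid markers was 3 without WT 1, 5 without WT 3 and 4 without AMPK KO 1. The call of C1qb was lost without WT 1, and that of Fcer1g without any of these 3 samples. Of 6 tested plasma cell markers 1 was called higher (Jchain, 2.60), and of 6 tested neutrophil markers 2 were called lower (Ltf, −1.54, and Ngp, −1.53). The call of Ltf was lost without WT 1, WT 2, WT 3 or AMPK KO 1 (adjusted p up to 0.13), whereas 4 neutrophil markers were called lower without AMPK KO 2. Plasma cell markers called higher numbered 2 without WT 2 or AMPK KO 2. B cell markers (9 tested, median 0.02, summed log2 level 8.21 to 8.35 in WT and 8.19 to 8.45 in AMPK KO), CD8 markers (2, median 0.36), NK markers (5, median 0.65) and erythroid markers (6, median −0.07, summed log2 level 11.96 to 12.17 and 11.50 to 12.44) held no called gene by limma or limma voom. At an unadjusted p under 0.05 there were 1, 2, 2 and 0 of them. These medians moved with single libraries, that of NK markers from 0.30 without WT 1 to 0.75 without AMPK KO 2, that of B cell markers from −0.15 without AMPK KO 2 to 0.16 without AMPK KO 3, that of CD8 markers from 0.24 without WT 1 to 0.44 without WT 3, and that of erythroid markers from −0.16 without AMPK KO 2 to 0.12 without AMPK KO 3. Without WT 2, 1 NK marker and 1 erythroid marker were called higher. Without AMPK KO 2, 1 NK marker was called higher and 1 erythroid marker lower. Without overlap between the groups, the summed log2 level of CD8 markers was 7.86 to 8.26 in WT and 8.33 to 8.56 in AMPK KO, that of NK markers 5.81 to 6.27 and 6.48 to 6.80, that of plasma cell markers 7.74 to 8.12 and 9.14 to 9.15, and that of neutrophil markers 9.60 to 9.81 and 8.97 to 9.54. Endothelial markers had a summed log2 level of 6.57 to 6.60 in WT and 5.71 to 6.16 in AMPK KO, but 5 of the 8, including the defining Cdh5 and Tie1, were too low to be tested, and none of the other 3 was called by limma or limma voom (1 at an unadjusted p under 0.05). In other settings 1 endothelial marker was called lower: without AMPK KO 2, after scaling to the reads outside Rn45s, and with a term for the library division. The part of any of these cell types in the GIMAP differences was not tested.

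The 3 members with the lowest fold changes were followed over 17 other ways of processing the values. Gimap9 was called lower in all 17, with differences from −1.55 to −1.26. Gimap4 was called in 10 of 17 and Gimap6 in 4 of 17, and both were lower in each.

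**Figure D5:**
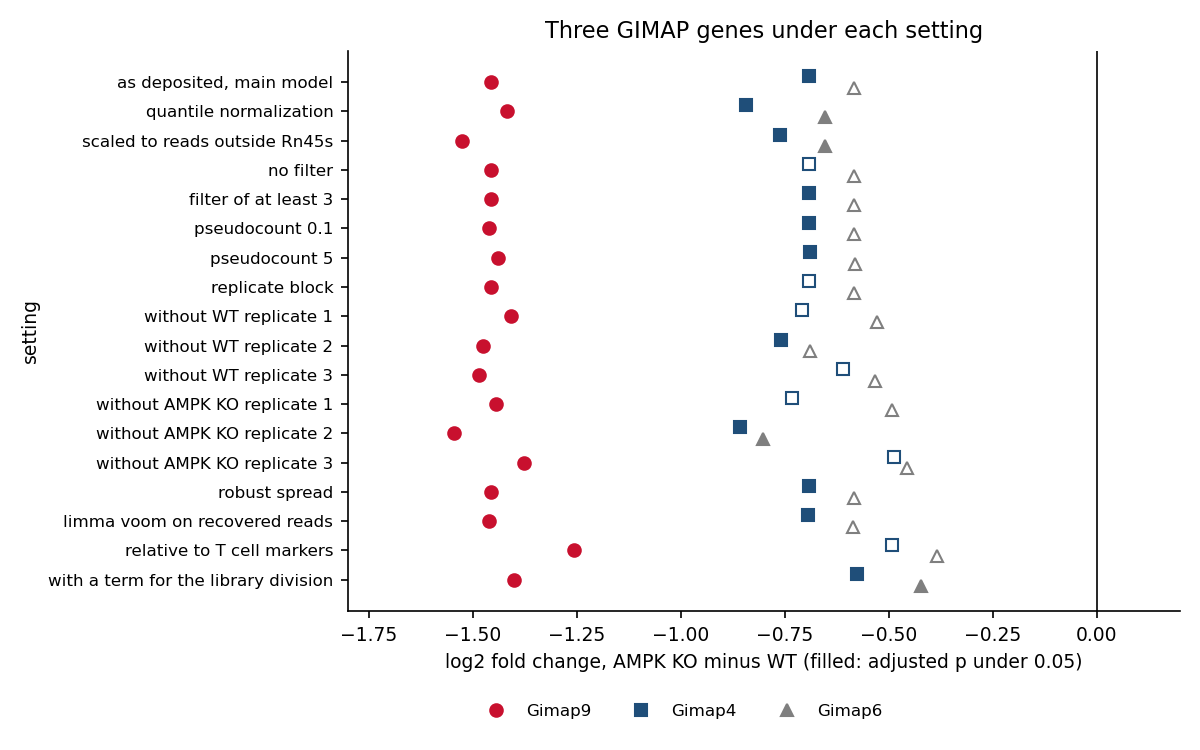
Log2 fold change (AMPK KO minus WT) of Gimap9 (circles), Gimap4 (squares) and Gimap6 (triangles) with the values as deposited (top) and under 17 alternatives, where filled symbols have an adjusted p under 0.05. Gimap9 stays between −1.55 and −1.26 and filled throughout, and Gimap4 (−0.86 to −0.49) and Gimap6 (−0.80 to −0.38) are filled in some settings and open in others.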

How the data were processed

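RNA of the 6 samples (500 ng of total RNA each) was made into QuantSeq 3′ libraries and processed by a company. The submitters' processing notes name Bowtie2, bedtools and mm10. Versions, annotation and strand setting are not given in the sources used here. The deposited files hold 1 log2 value per gene, which the authors made by normalizing read counts between libraries and adding a pseudocount of 1 before the log2 step. Up to 100 reads, 100% of the values were within 0.1 of whole reads. Recovered reads totalled an estimated 9575096 to 11185360 a library, since larger counts were not checked in this way. Counting error follows from the recovered reads. Repeated symbols (35, on 79 lines) were kept as separate lines.

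Genes with a mean log2 value of at least 1 were tested with limma 3.58.1 (R 4.3.3, eBayes with trend, genotype as the only term, all 6 samples, two-sided, Benjamini-Hochberg over 11279 genes, threshold 0.05). The unit called for limma in place of a count model. Single values were also compared by exact permutation, where 3 against 3 cannot go below 0.1. Alternatives were quantile normalization, scaling to reads outside Rn45s or to T cell markers, other filters (none, or at least 3) and pseudocounts (0.1, 5), a replicate block, a robust spread, limma voom on recovered reads and leaving out each sample. A term for the library division was chosen after seeing the data. Groups follow the labels. The limma p-values set the difference between genotypes against a spread between these samples that is moderated over all tested genes. Exact p-values come from relabelling the samples.

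All 8 members were named whatever their values. From each list at most 4 called genes were named by size of fold change, or up to 2 where none was called, with called and tested neighbours of the cluster and the 5 nearest profiles. The members and lists were chosen with earlier results of these data known. Promoter sequences are from RefSeq. Protein sequences were not used here.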

Additional observations from a re-analysis of the deposited data

How the results depend on the processing

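Of 17 alternatives, all 17 kept Gimap9 as called lower (differences from −1.55 to −1.26, adjusted p from 4.2e-10 to 0.0425) and 0 members called higher. The median over the members stayed between −0.37 and −0.10, and the summed level between −0.79 and −0.44 in the 9 alternatives run for it (−0.44 relative to T cell markers, chosen after seeing the data). The count of members called lower was 1 with no filter on low values, with the replicate block and relative to T cell markers, and 1 to 3 when single samples were left out. It was 1 without WT 1, WT 3, AMPK KO 1 or AMPK KO 3, and 3 without AMPK KO 2. Gimap4 then differed by −0.69 with no filter (limma, adjusted p = 0.418), by −0.69 with the replicate block (adjusted p = 0.156), by −0.49 relative to T cell markers (adjusted p = 0.0996) and by −0.86 to −0.49 without single samples (adjusted p from 0.000755 to 0.199). T cell marker scaling shifts every gene of a sample alike, and it moved the median of all genes to 0.22. Relative to that median Gimap4 differed by −0.71 and Gimap3 by −0.166. These are the same as with the deposited values by construction, and are no separate check. The count was 3 with quantile normalization (Gimap6 −0.65, adjusted p = 0.0265), with scaling outside Rn45s and with the library division term (Gimap6 −0.42, adjusted p = 0.0129). Gimap3 turned positive without AMPK KO 3 (0.054), relative to T cell markers (0.050) and with the division term (0.0042), and its range without single samples was −0.337 to 0.054. Gimap7 turned positive without AMPK KO 3, with a range of −0.361 to 0.018. The cause was not tested.

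Replicate numbers are shared by the groups but did not pair the samples: deviations of same-numbered samples correlated at −0.225, −0.532 and −0.307 over 6143 genes. The replicate block left 102 genes called in place of 637. All genes called numbered 39 with no filter, 102 with the block, 1428 with the division term, 127 without WT 1, 140 without WT 3, 172 without AMPK KO 1 and 1246 without AMPK KO 2. T cell marker scaling gave 681 higher and 148 lower calls and scaling outside Rn45s 235 and 487, in place of 287 and 350. With 132 to 526 reads, Gimap5 was measured least precisely.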
